A study of Homo sapiens with 2 samples.

Results

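Within a pool of KMT2D knockout cells, 947 cells with a mostly mesenchymal vimentin score were set against 1360 cells of the same pool with a mostly epithelial one. The score, V, is the share of vimentin (VIM) among the UMIs (counted transcript molecules) of VIM, the keratins KRT5 and KRT17, S100A14 and SFN in a cell. Cells with V above 0.5 form the mesenchymal range and cells with V at or below 0.5 the epithelial range. Cells were kept with at least 500 genes, at most 20% mitochondrial UMIs and at least 5 UMIs of the score genes. Of the 2459 barcodes given to the C1-sgKMT2D line, 138 failed the cell filter and 14 the score minimum, which left 2307 of the 10336 barcodes in the matrix. Both groups were thus chosen by measured values, the UMIs of the 5 score genes, so the differences between them are given as a description, with no test, and the 5 score genes are left out of the gene comparison.

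The cells come from C1, an epithelial line derived from HMLER, human mammary epithelial cells that were immortalised and made tumorigenic with oncogenic RAS. The lines used here are C1-sgKMT2D, edited with a guide against KMT2D, C1-sgEED, edited with a guide against EED, and C1-sgControl, which carries a control guide. All were grown in the same mixed mammary medium with insulin, EGF and hydrocortisone, stained with hashtag antibodies, pooled and read as 1 library of 3' UMI counts with 1 hashtag library. The library titles speak of mixed clones. The sources used here do not give the number of clones in a line, so a mix of clones and cells that changed state cannot be told apart. Each line is 1 sample and cells are not replicates. No difference below has a replicate check, and the 95% intervals cover counting error only.

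KMT2D encodes a methyltransferase that places methyl groups on histone H3 at enhancers, and EED belongs to PRC2, the Polycomb complex that methylates histone H3 at silent genes. In an epithelial-to-mesenchymal transition, cells lose the junctions, keratins and basal attachments of an epithelium and gain vimentin, collagens and other matrix proteins. Repressors of the ZEB, SNAI and TWIST families can drive this programme, and cells often stop at states between its ends.

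A cell was given to a line by the antibody barcode it carried, which is why these sequences are shown. The capitals mark the whole barcode, read 5′ to 3′, and a barcode had to reach 150 UMIs and 10 times the next one.
hashtag 4, C1-sgKMT2D: AGTAAGTTCAGCGTA
hashtag 3, C1-sgEED: TTCCGCCTCTCTTTG
hashtag 1, C1-sgControl: GTCAACTCTTTAGCG
The barcode of C1-sgEED differs from that of C1-sgKMT2D at 12 of 15 positions and that of C1-sgControl at 11. C1-sgKMT2D cells had a median of 1608 hashtag UMIs in the mesenchymal range and 1637.5 in the epithelial range, so the line was read about equally well in both. A further hashtag in the matrix has no line in the labels. Its cells are set against no other line gene by gene, and their values are only described.

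Of the scored C1-sgKMT2D cells, 41.0% (39.0 to 43.1, Clopper-Pearson) lay in the mesenchymal range. The share was 45.9% (43.9 to 48.0) in C1-sgEED, with 1064 of 2316 cells. In C1-sgControl 0 of 1713 cells did, which allows a share of up to 0.175% by the limit of 3 counts and 0.215% by Clopper-Pearson. The cell filter had removed 138 of 2459 barcodes of C1-sgKMT2D and 618 of 2332 of C1-sgControl. The distribution of V in C1-sgKMT2D had a broad low part, a broad high part and cells throughout the middle. The values that chose the groups show what V follows. VIM itself was at 4950 CPM (UMIs scaled to a common total per group) in the mesenchymal range and 2849 CPM in the epithelial range, with 1149 CPM in C1-sgControl. KRT17 was at 749 CPM in the mesenchymal range and 8909 CPM in the epithelial range, and S100A14 at 117 and 2124 CPM. The epithelial range of C1-sgKMT2D therefore already held more VIM than the control line, and the score genes other than VIM differed more between the ranges than VIM did.

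**Figure D1:**
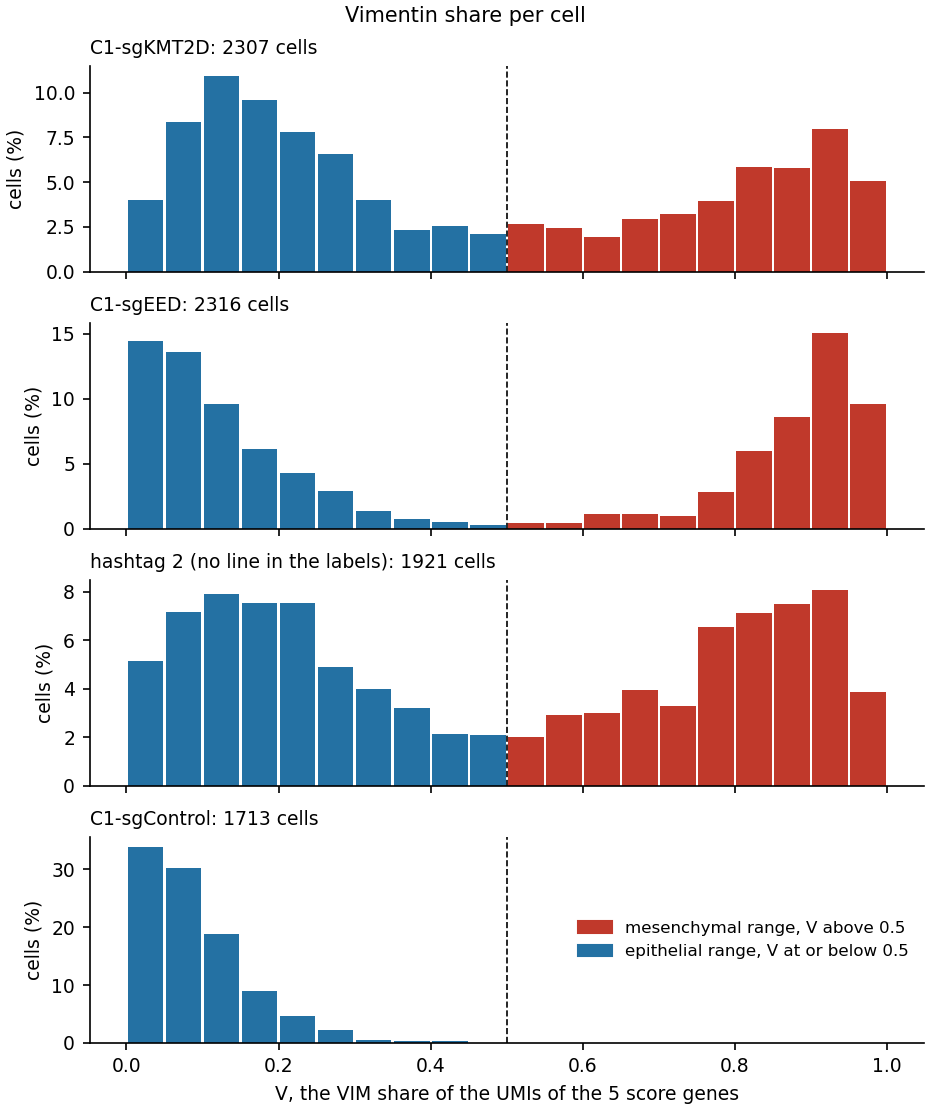
Share of cells (y axis, %) by V (x axis, bins of 0.05) in C1-sgKMT2D, C1-sgEED, the hashtag with no line in the labels and C1-sgControl, with the bound of 0.5 dashed. In C1-sgKMT2D 41.0% of cells lie above the bound and the middle is filled, while 0 of 1713 C1-sgControl cells lie above it.

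Markers outside the score describe the groups. The 5 markers given for the mesenchymal cells, TNFAIP6, FABP4, DCN, COL3A1 and CXCL8, come from this same comparison, so their direction is no check of the label. They summed to 839 CPM in the mesenchymal range, against 62.2 CPM in the epithelial range. Of the epithelial markers, KRT14, DSP, EPCAM and CDH1 were lower in the mesenchymal range, and CLDN4 stayed under 10 CPM in both ranges. Immune, endothelial and neural markers were at or near 0, while the adipocyte list held PPARG. Of 6 immune markers, PTPRC, CD3E, LYZ and TYROBP had 0 UMIs in the mesenchymal range, and the list summed to 0.874 CPM there and 0.966 CPM in the epithelial range. Of 5 endothelial markers, VWF, CDH5 and KDR had 0 UMIs, and the sums were 0.437 and 0.537 CPM. Of 4 neural markers, TUBB3, SOX10 and GFAP had 0 UMIs, with sums of 0.656 and 0.859 CPM. Of 6 adipocyte markers, ADIPOQ and LPL had 0 UMIs, and the sums of 41.5 and 17.7 CPM were mostly PPARG, a nuclear receptor of fat cells, at 37.4 and 17.3 CPM. PPARG was thus at least 2-fold higher in the mesenchymal range, with a log2 ratio of 1.07.

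The mesenchymal-range cells were shallower, and the part of depth in single results was not tested. Their median was 4407 UMIs and 1521 genes per cell, against 6714.5 UMIs and 2066 genes in the epithelial range, and the groups summed to 4574106 and 9312203 UMIs. Median mitochondrial shares were 8.51% and 8.07%. Among cells of 4000 to 8000 UMIs alone, 168 genes were at least 2-fold higher and 239 lower in the mesenchymal range, close to the counts over all cells below. In summed counts, fewer cells with a transcript and less of it per cell cannot be told apart.

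Of 5142 genes that reached 20 CPM in either range, 169 (3.29%) were at least 2-fold higher in the mesenchymal range and 228 (4.43%) at least 2-fold lower. A fold for these counts is taken after adding 1 CPM to both levels, and the median log2 ratio of all 5142 genes was -0.03. These shares are the background for the genes and lists below. The highest 15 genes were, in order, FABP4, COL3A1, PTGFR, PTX3, IL1RL1, TNFAIP6, KYNU, DCN, COL6A2, CADM3, COL6A3, PDGFRA, ENPP2, MGP and GALNT15. Among the lowest 15 were EPCAM, AP1M2, RAB25, COL17A1, SFRP1, LAD1, KRT16, PHACTR3, MAL2, KRT15, MPZL2, GJB5, KRT6B and LAMA3.

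**Figure D2:**
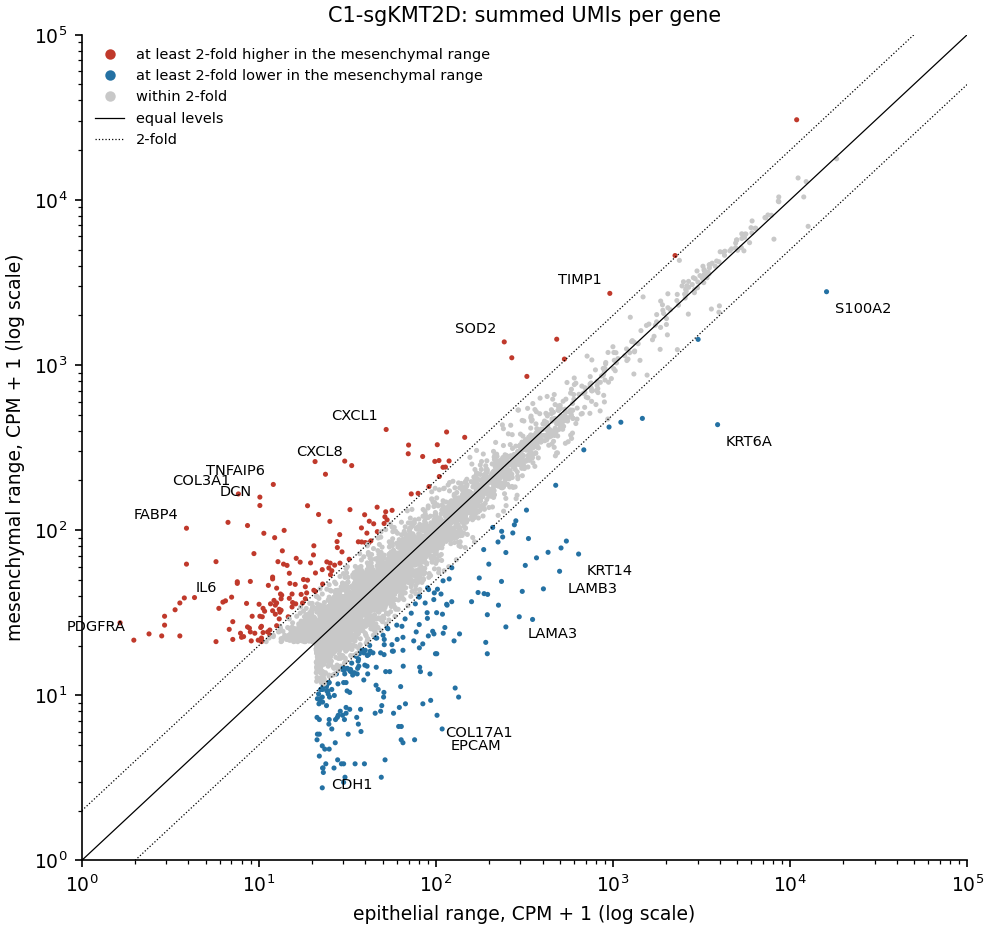
Each point is a gene of at least 20 CPM in either range of C1-sgKMT2D, with the mesenchymal range on the y axis and the epithelial range on the x axis (CPM + 1, log scales). The 169 genes at least 2-fold higher include COL3A1, TNFAIP6 and the chemokine CXCL8, and the 228 lower include EPCAM, KRT14 and LAMA3.

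Matrix genes were higher in the mesenchymal range, above all collagens III and VI. Of 17 collagen genes listed, 12 reached 10 CPM, the floor for list members, and 8 were at least 2-fold higher and 1 lower, where 3.55% of 7519 genes at this floor were higher and 4.54% lower. COL3A1 (ENSG00000168542, GRCh38 chromosome 2, 188974320 to 189012746, plus strand), the chain of fibrillar collagen III, was at 165 CPM in the mesenchymal range and 6.66 CPM in the epithelial range, or 24.7-fold higher (19.1 to 32.6), with 0.704 CPM in C1-sgControl. The 3 chains of collagen VI, which forms beaded filaments around cells, were higher together. COL6A2 was at 259 CPM against 19.8, COL6A1 at 217 against 22.8 and COL6A3 at 63.4 against 4.73. COL1A1, the main chain of collagen I, stood at 12.2 and 10.2 CPM, so the collagens did not move as 1 group. COL17A1, a transmembrane collagen of hemidesmosomes, was the member that was lower, at 6.56 CPM against 100.4, or 15.3-fold lower (10.7 to 22.8).

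Of 26 matrix glycoprotein and proteoglycan genes, 16 were measured, 9 of them higher and 1 lower. DCN (ENSG00000011465, chromosome 12, 91140484 to 91183123, minus strand) encodes decorin, a small proteoglycan that binds collagen fibrils. It was at 139.9 CPM in the mesenchymal range and 9.13 CPM in the epithelial range, or 15.3-fold higher (12.2 to 19.5). MGP, an inhibitor of calcification in matrix, was 13.5-fold higher (8.94 to 21.3), and versican (VCAN) and SPARC were 3.91-fold and 3.37-fold higher. Fibronectin (FN1), the most abundant member, was at 2583 CPM against 1477, within 2-fold. Syndecan 1 (SDC1), a proteoglycan of the epithelial surface, was the lower one at 19.5 CPM against 83.2.

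Matrix-modifying genes went in both directions, inhibitors among them, with 5 of 12 measured members higher and 4 lower. The higher ones were inhibitors and crosslinkers. The protease inhibitor TIMP1 was at 2713 CPM in the mesenchymal range and 958 CPM in the epithelial range, and SERPINE2, also a protease inhibitor, was at 1105 and 267 CPM. The collagen crosslinking enzymes PLOD2 and LOX were 2.89-fold and 2.17-fold higher. The lower members were the urokinase gene PLAU at 22.7 CPM against 108.9, its receptor PLAUR, the inhibitor TIMP3 and the gelatinase MMP9 at 1.53 CPM against 12.8.

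TNFAIP6 and PTX3, partners in the hyaluronan matrix, stood near the top. TNFAIP6 (ENSG00000123610, chromosome 2, 151357592 to 151380048, plus strand) encodes TSG-6, a secreted protein that transfers heavy chains onto hyaluronan and is induced by inflammatory signals. It was at 188 CPM in the mesenchymal range and 11.1 CPM in the epithelial range, or 17.0-fold higher (13.8 to 21.1), with 1.11 CPM in C1-sgControl. PTX3, a pattern-recognition protein that binds TSG-6, was at 110.4 and 5.69 CPM, or 19.4-fold higher (14.6 to 26.3). The hyaluronan synthase HAS2, less abundant, was at 13.1 CPM against 1.40. The hyaluronan receptor CD44 did not differ, at 427 CPM in both ranges with a ratio of 1.00 (0.947 to 1.06).

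Neutrophil chemokines and interleukin 6 were several-fold higher in the mesenchymal range. Of 28 cytokine genes, 16 were measured, 10 of them at least 2-fold higher and 4 lower. CXCL8 (ENSG00000169429, chromosome 4, 73740506 to 73743716, plus strand), which encodes the neutrophil attractant interleukin 8, was at 245 CPM in the mesenchymal range and 32.4 CPM in the epithelial range, or 7.55-fold higher (6.64 to 8.60). C1-sgControl had 52.8 CPM, so the epithelial range of C1-sgKMT2D lay below the control and the mesenchymal range above it. CXCL1 was at 406 CPM against 51.3, CXCL2 at 289 against 68.7 and CXCL3 at 391.8 against 114. These 3 genes are near copies of each other, and reads that match several of them leave each single level uncertain. IL6 had 36.3 CPM against 5.48, a ratio of 6.63 (4.82 to 9.26). IL1RL1, the receptor of interleukin 33, had the highest ratio of the list, with 61.2 CPM against 2.90, a ratio of 21.1 (14.2 to 32.6). Its 280 UMIs in the mesenchymal range came from 86 of 947 cells, a clustering that the interval leaves out. IL33 itself was under the floor of 10 CPM in both ranges, with 0 UMIs in the mesenchymal range.

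The interleukin 1 family went the other way or stayed level. IL1A, an alarmin of epithelial cells, was at 2.84 CPM in the mesenchymal range and 33.9 CPM in the epithelial range, or 11.9-fold lower (6.88 to 22.7). IL18 was at 72.2 CPM against 247, and LTB and TNFSF10, both of the tumour necrosis factor family, were 3.46-fold and 2.79-fold lower. IL1B stood at 38.5 and 26.3 CPM, within 2-fold. The cytokine list therefore held higher chemokines and lower interleukin 1 family alarmins in the summed counts of the mesenchymal range. Whether single cells held both was not examined.

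Genes known as targets or feedback inhibitors of NF-kB, the transcription factor of inflammatory signalling, were higher for 4 of 15 measured members and lower for 0. SOD2, the mitochondrial superoxide dismutase, was the most abundant at 1379 CPM in the mesenchymal range and 242 CPM in the epithelial range, or 5.70-fold higher (5.43 to 5.98). The adhesion molecule ICAM1, the deubiquitinase TNFAIP3 and the atypical inhibitor NFKBIZ were 3.07-fold, 2.49-fold and 2.18-fold higher. The subunit genes differed less: NFKB1 was at 22.7 and 21.6 CPM, RELA at 30.6 and 27.8 CPM, and REL at 20.3 and 39.95 CPM.

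The promoters of 5 of these genes and of TNFAIP6 are shown because they moved together in the comparison. Each line gives the 150 bases before the RefSeq start on GRCh38.p14, 5′ to 3′ on the gene's strand. Capitals mark matches on either strand to GGNNTTTCC, an NF-kB-type motif, or TGANTCA, an AP-1-type motif, which do not overlap here.
CXCL8 (chr4:73740419-73740568, plus strand): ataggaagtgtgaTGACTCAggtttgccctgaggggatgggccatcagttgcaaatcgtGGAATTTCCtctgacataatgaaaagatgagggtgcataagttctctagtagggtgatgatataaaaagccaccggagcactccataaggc
CXCL1 (chr4:73869243-73869392, plus strand): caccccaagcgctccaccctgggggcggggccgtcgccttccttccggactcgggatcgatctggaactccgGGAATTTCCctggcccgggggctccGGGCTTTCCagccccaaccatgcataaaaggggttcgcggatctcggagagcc
CXCL2 (chr4:74099196-74099345, minus strand): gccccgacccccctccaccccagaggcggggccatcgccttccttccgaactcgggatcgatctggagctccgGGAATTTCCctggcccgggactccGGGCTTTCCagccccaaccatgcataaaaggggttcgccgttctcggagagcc
CXCL3 (chr4:74038690-74038839, minus strand): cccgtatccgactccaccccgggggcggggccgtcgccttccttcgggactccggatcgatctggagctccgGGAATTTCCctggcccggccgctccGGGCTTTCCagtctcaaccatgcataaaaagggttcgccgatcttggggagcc
IL6 (chr7:22727050-22727199, plus strand): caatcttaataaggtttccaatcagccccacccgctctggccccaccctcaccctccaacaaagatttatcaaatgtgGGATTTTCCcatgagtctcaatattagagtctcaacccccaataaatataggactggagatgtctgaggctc
TNFAIP6 (chr2:151357442-151357591, plus strand): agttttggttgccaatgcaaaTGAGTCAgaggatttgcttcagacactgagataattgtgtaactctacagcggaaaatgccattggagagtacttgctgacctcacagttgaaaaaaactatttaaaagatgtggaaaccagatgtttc
In the RefSeq windows of 250 bases before to 50 after the start, 7 of the 8 higher cytokine genes with an entry held GGNNTTTCC: CCL20, CXCL1, CXCL2, CXCL3, CXCL8, IL32 and IL6. Of all 35116 such windows 6.26% held it, and of all 27305 genes with a window 2078 did. These genes were picked because they were higher, so the match is a description and not a site. In the last 80 bases shown, CXCL1 was the same as CXCL2 at 69 positions and as CXCL3 at 72. These near copies are therefore not separate observations. Of the 10 of the highest 15 genes with an entry, 0 held GGNNTTTCC, and 4 held TGANTCA (GALNT15, IL1RL1, PDGFRA and TNFAIP6). The latter motif is in 7.71% of all windows and in 2558 of 27305 genes.

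Among EMT transcription factors, ZEB1, ZEB2, FOXC2 and TWIST1 were higher and SNAI2 was lower, of 7 measured. ZEB1 and ZEB2 repress epithelial genes such as CDH1. ZEB1 was at 21.9 CPM in the mesenchymal range and 2.58 CPM in the epithelial range, or 8.48-fold higher (5.39 to 13.9), and ZEB2 at 32.6 and 4.94 CPM. TWIST1 and FOXC2 were 2.92-fold and 3.05-fold higher. SNAI2, which encodes Slug, a factor also present in basal mammary cells, was at 40.0 CPM against 105.8 and so 2.64-fold lower (2.26 to 3.11). SNAI1 was under the floor, at 8.96 CPM against 0.967. The EMT factors thus did not move in 1 direction. N-cadherin (CDH2), often used as a marker of the transition, had 17 UMIs in the mesenchymal range and 2 in the epithelial range (3.72 and 0.215 CPM, a ratio of 17.3 with an interval of 4.11 to 154), too few to reach the floor.

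Epithelial transcription and splicing factors were lower, 5 of 7 measured and 0 higher. TP63, the p53 family member that maintains basal epithelium, was at 0.656 CPM in the mesenchymal range and 14.4 CPM in the epithelial range, or 21.9-fold lower (7.35 to 108). ESRP1, which directs epithelial splicing, was 9.94-fold lower (5.71 to 18.9). TFAP2A and KLF5 were 3.60-fold and 2.99-fold lower.

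Cell junction genes were lower in the mesenchymal range, with 10 of 15 adherens junction and desmosome genes and 6 of 8 measured tight junction genes at least 2-fold lower and 0 higher. EPCAM (ENSG00000119888, chromosome 2, 47345158 to 47387601, plus strand), the epithelial cell adhesion molecule, was at 5.25 CPM in the mesenchymal range and 107 CPM in the epithelial range, or 20.5-fold lower (13.7 to 32.1). E-cadherin (CDH1), the main cadherin of epithelia, was at 2.62 CPM against 22.0, with 65.9 CPM in C1-sgControl. The desmosomal cadherin DSG3 was 11.1-fold lower and desmoplakin (DSP), which ties desmosomes to keratins, 5.51-fold lower, at 66.9 CPM against 369. The catenin genes differed among themselves, with CTNNB1 at 63.2 and 64.9 CPM and JUP at 12.9 and 80.8 CPM. The gap junction gene GJB5 was 14.8-fold lower (7.68 to 32.7). AP1M2 and RAB25, which act in sorting to epithelial membrane domains, were 22.0-fold (11.8 to 46.2) and 17.1-fold lower (10.98 to 28.2).

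Of 17 hemidesmosome and basal lamina genes, 9 were lower and 0 higher. The laminin chains LAMA3 and LAMB3, which serve the anchoring of basal cells, were both lower. LAMA3 was at 28.9 CPM in the mesenchymal range and 294 CPM in the epithelial range, and LAMB3 at 55.3 and 498 CPM. The hemidesmosome integrin of ITGA6 and ITGB4 was 6.53-fold and 6.58-fold lower by chain. The laminin chains LAMB1 and LAMC1 and the integrin chains ITGB1 and ITGA5 were within 2-fold. Lower members were thus more frequent in this list than the 4.54% among all 7519 genes at this floor. Its members did not all move together.

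Keratins differed by type. Of 9 measured, 7 were lower and 0 higher. The basal and stress keratins and the hair keratin KRT81 had the lowest ratios, with KRT81 at 19.9 CPM in the mesenchymal range and 190.1 CPM in the epithelial range, KRT16 at 27.8 and 350.2 CPM, KRT14 at 70.6 and 638 CPM, and KRT6A at 434 and 3894 CPM. Of the simple-epithelial keratins, KRT7, KRT8 and KRT18 were still read at over 100 CPM in the mesenchymal range. KRT19 was under the floor of 10 CPM in both ranges, with 0 UMIs in the mesenchymal range. KRT7 was at 867 CPM against 1556, KRT8 at 162 against 286 and KRT18 at 420.0 against 949, so KRT7 and KRT8 were within 2-fold. Keratins with close copies, such as KRT6A and KRT6B, could share reads. S100A2, a calcium-binding protein of basal cells and one of the most abundant transcripts, was at 2777 CPM against 16063 and so 5.78-fold lower (5.68 to 5.89).

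Receptors and secreted factors were exchanged in part. Of 14 measured growth factor genes, 4 were higher and 5 lower. PDGFRA, a receptor of fibroblasts, was at 20.6 CPM in the mesenchymal range and 0.967 CPM in the epithelial range, or 21.3-fold higher (10.7 to 47.9), and FGFR1 was 3.31-fold and FGF2 4.96-fold higher. EREG, a ligand of the EGF receptor, was at 278 CPM against 83.1, while AREG, another, was at 1249.9 against 1191. The lower members were EGFR at 49.6 CPM against 118, MET, and the ligands TGFA, HBEGF and NRG1. IGFBP4, which binds insulin-like growth factors, was at 261 CPM against 29.5, with 3 of 6 measured members of its list higher and 0 lower.

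Among the highest 15 were several genes of small-molecule signalling and metabolism. KYNU, an enzyme of tryptophan breakdown, was at 157 CPM in the mesenchymal range and 9.13 CPM in the epithelial range, or 17.2-fold higher (13.8 to 21.9), and was the only member of its list of 9 to reach 10 CPM. PTGFR, the receptor of prostaglandin F2 alpha, was 41.1-fold higher (18.3 to 114) on 121 and 6 UMIs. ENPP2, which encodes autotaxin, the enzyme that makes lysophosphatidic acid, was 15.04-fold higher (9.16 to 26.2). The adhesion molecule CADM3 was at 105.6 CPM against 7.62.

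Complement, acute-phase and interferon genes were also higher in part. Of 9 measured complement and acute-phase genes, 6 were higher and 0 lower, among them the protease genes C1R at 98.6 CPM in the mesenchymal range and 12.9 CPM in the epithelial range and C1S at 14.4 and 2.15 CPM. Of 10 measured interferon response genes, 6 were higher and 0 lower. IFI44L, at 16.2 CPM against 0.967, had the highest ratio, and the antiviral membrane gene IFITM2 was at 123 CPM against 20.7. Of 11 MHC class I genes, HLA-B was at least 2-fold higher in this count and the other members were within 2-fold. SAA1 and SAA2 and the HLA genes have close copies, so their single levels are uncertain.

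Cell cycle and stress lists did not separate the ranges at 2-fold. Of 26 G1/S and 35 G2/M genes measured, 0 were higher and 0 lower, with median log2 ratios of 0.33 and 0.08. The proliferation marker MKI67 was at 249 CPM in the mesenchymal range and 214 CPM in the epithelial range. The same held for 14 immediate-early genes (median 0.49), 10 CDK inhibitor and Rb pathway genes (median -0.17), 13 mitochondrial transcripts (median 0.12) and 16 modifiers of histone H3 (median 0.14). Of the edited genes, KMT2D was at 5.47 CPM against 4.83 and EED at 16.8 against 14.8, with ratios of 1.13 (0.665 to 1.88) and 1.14 (0.848 to 1.51). A 3' count need not change with a small edit upstream, so these levels say little about the edit.

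The level of FABP4, which ranked first with the pseudocount and below PTGFR without it, rested on few cells. FABP4 (ENSG00000170323, chromosome 8, 81478419 to 81483263, minus strand) encodes a fatty acid binding protein known from fat cells, endothelium and macrophages. It was at 102 CPM in the mesenchymal range and 2.90 CPM in the epithelial range, or 35.1-fold higher (23.8 to 53.8). Its 465 UMIs in the mesenchymal range came from 43 of 947 cells, or 10.8 UMIs per cell with any, and its 27 UMIs in the epithelial range came from 3 of 1360 cells. Those 27 UMIs lay in cells with V between 0.4 and 0.5, next to the bound, and cells with lower V had 0. The log2 ratio of 4.72 was 7.12 for V above 0.8 against V at or below 0.2. It was 2.25 in cells thinned to 2000 UMIs, where V was scored anew and cells could change range. With the ranges kept as first scored, thinned cells held 167 FABP4 UMIs in 910 mesenchymal-range cells and 5 in 1306 epithelial-range cells. TNFAIP6, by contrast, had a UMI in 33.9% of mesenchymal-range cells, with 2.68 UMIs per such cell. FABP4 was thus a strong transcript in a small share of these cells, whereas the other markers were spread more widely.

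To compare shares of cells free of depth, each cell was thinned to 2000 UMIs, which left out 37 cells of the mesenchymal range, 54 of the epithelial range and 77 of C1-sgControl. A TNFAIP6 UMI was then found in 21.3% (18.7 to 24.1) of mesenchymal-range cells, 1.99% of epithelial-range cells and 0.122% of C1-sgControl cells. What the last value stems from was not tested. Before thinning, C1-sgControl held 11 TNFAIP6 UMIs in 5 of 1713 cells. The epithelial range of C1-sgEED held 0 in 1252 cells. The median depth of C1-sgControl before thinning was 5699 UMIs. COL3A1 was found in 22.9%, 1.61% and 0.0611% of the cells in the same order, and DCN in 19.7%, 2.30% and 0.183%. CXCL8 was found in 26.7%, 5.28% and 8.19%, so for it the epithelial range was not above the control line. SOD2 was found in 79.9% of mesenchymal-range cells, 32.0% of epithelial-range cells and 30.1% of C1-sgControl cells. FABP4 was found in 3.85% (2.69 to 5.31), 0.230% and 0.244%.

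**Figure D3:**
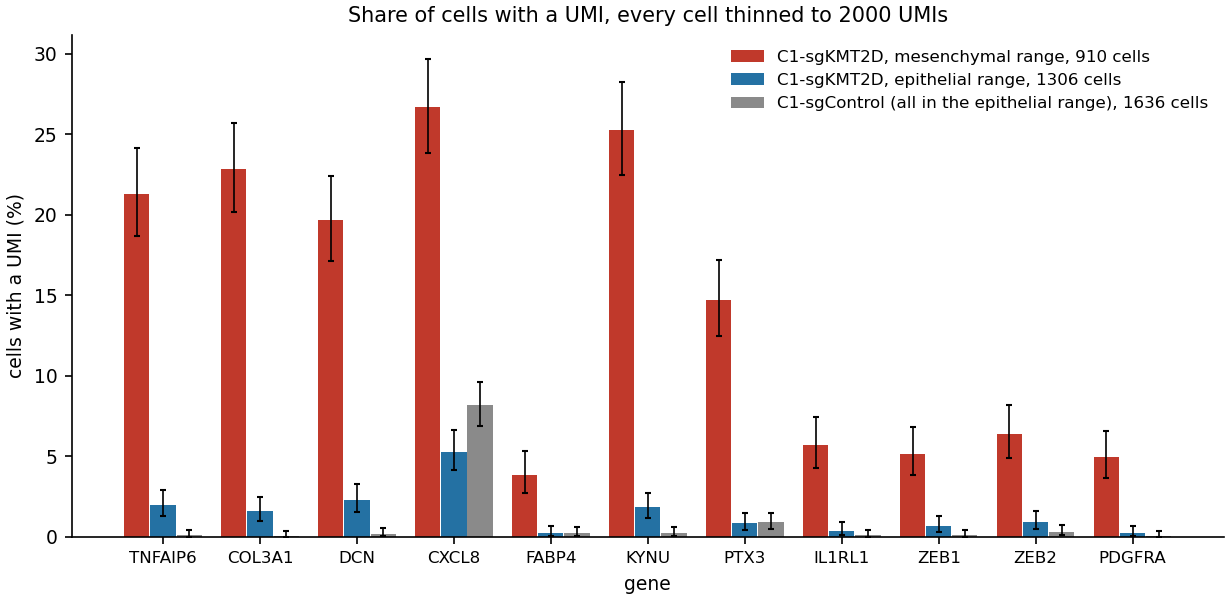
Share of cells with a UMI (y axis, %) for 11 genes, with every cell thinned to 2000 UMIs, in the mesenchymal and epithelial ranges of C1-sgKMT2D and in C1-sgControl (bars, with 95% Clopper-Pearson intervals). TNFAIP6, COL3A1, DCN, CXCL8 and KYNU lie between 19.7% and 26.7% in the mesenchymal range, and FABP4 at 3.85%.

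The markers were not all found in the same cells. At least 1 of the 5 markers had a UMI in 59.8% of thinned mesenchymal-range cells and 9.42% of epithelial-range cells, and at least 2 in 26.7% and 1.45%. At this depth a cell without a UMI may still carry the transcript. Within the mesenchymal range, CXCL8 was found in 40.7% (33.7 to 48.0) of the 194 cells with TNFAIP6 and 22.9% (19.9 to 26.2) of the 716 without it. COL3A1 was found in 45.7% (28.8 to 63.4) of the 35 cells with FABP4 and 21.9% of the 875 without. TNFAIP6 was found in 11.4% (3.20 to 26.7) of the cells with FABP4 and 21.7% of those without, with overlapping intervals. DCN was found in 8.57% (1.80 to 23.1) of the cells with FABP4 and 20.1% of those without. For TNFAIP6 and COL3A1 the shares were near each other, with COL3A1 in 25.3% of cells with TNFAIP6 and 22.2% without. V was not held fixed within the range for these pairs.

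Levels changed along V in steps of unlike size. The ranges are cut from the score itself, so this course is a description. In 6 ranges of V from 0 to 0.2, 0.4, 0.5, 0.6, 0.8 and 1, there were 769, 476, 115, 99, 301 and 547 cells. TNFAIP6 was at 2.64, 11.3, 80.03, 75.8, 148 and 234 CPM from the lowest to the highest of them. CXCL8 was at 22.6, 38.8, 80.03, 105.4, 234 and 281 CPM. Both were already several-fold higher between 0.4 and 0.5 than at the lowest V. EPCAM was at 115, 109, 39.2, 22.2, 4.10 and 2.33 CPM, and KRT14 at 795, 478, 185, 194, 64.3 and 48.2 CPM, so KRT14 was lower from the second range on and EPCAM from the third. KRT18 changed least of these, at 964, 967, 723, 614, 460.1 and 356 CPM.

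Cells just above and just below the bound were close in some genes and apart in others. Between 0.5 and 0.6 the 99 cells had a median of 5161 UMIs, and between 0.4 and 0.5 the 115 cells had 4926. COL3A1 was at 55.5 CPM above the bound and 45.5 below it, LAMA3 at 131 and 116, and KYNU at 70.3 and 59.6. DCN was at 107 above it and 56.5 below, CXCL1 at 272 and 133, and PTX3 at 55.5 and 20.4, with counting intervals that do not overlap. These levels rest on 58 and 36 UMIs for DCN and 30 and 13 for PTX3. The intervals leave out the clustering of UMIs in cells and so are too narrow to secure a difference. FABP4 was at 18.5 above it and 42.4 below. Of cells with V from 0.4 to 0.6, 7.01% had a Scrublet doublet score among the highest, against 3.70% of the mesenchymal and 7.21% of the epithelial range.

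**Figure D4:**
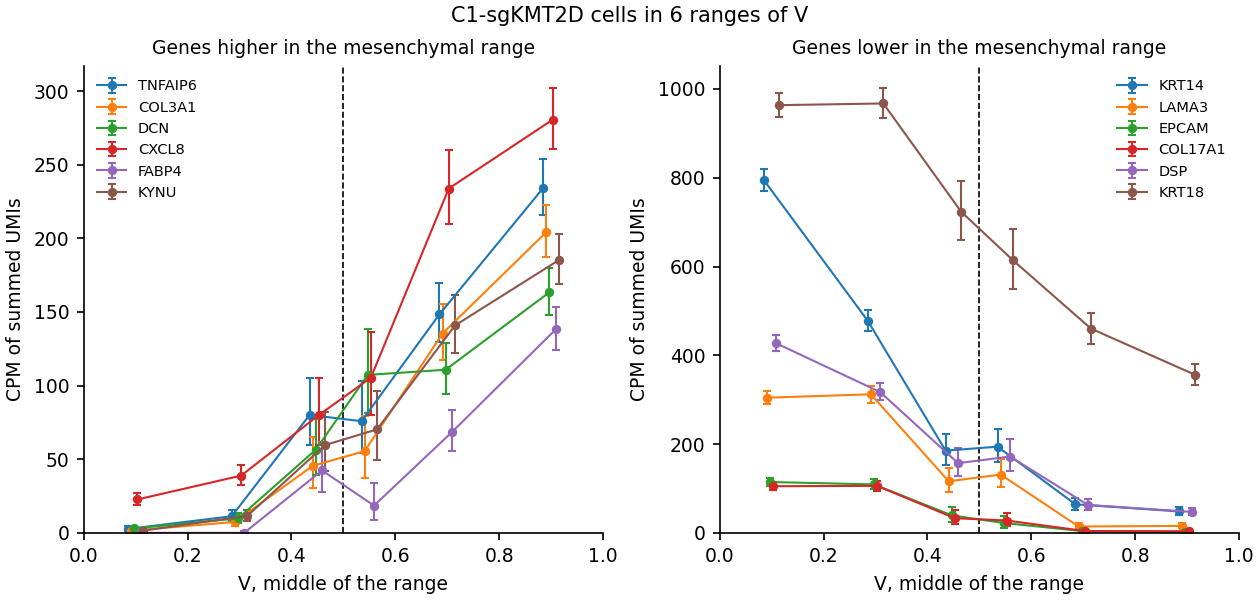
CPM of summed UMIs (y axis) in 6 ranges of V (x axis, middle of each range) of C1-sgKMT2D cells, with 95% Poisson intervals and the bound of 0.5 dashed. TNFAIP6 goes through 80.03 and 75.8 CPM in the ranges next to the bound, and KRT14 through 185 and 194 CPM.

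The same split in C1-sgEED shares no cells with the one in C1-sgKMT2D. Of 4891 genes of at least 20 CPM in both lines, 131 were at least 2-fold higher in the mesenchymal range of C1-sgKMT2D and 168 in that of C1-sgEED. Of the same 4891 genes, 213 were lower in C1-sgKMT2D and 333 in C1-sgEED. Over the larger set of 5640 genes at this floor in C1-sgEED, 5.57% were higher and 7.43% lower. Higher in both were 68, which is 51.9% of the C1-sgKMT2D genes and 40.5% of the C1-sgEED genes. Lower in both were 158 genes, or 74.2% of 213 in C1-sgKMT2D and 47.4% of 333 in C1-sgEED. COL3A1 was at 165 CPM in the mesenchymal range and 6.66 CPM in the epithelial range of C1-sgKMT2D, and at 177 and 4.51 CPM in C1-sgEED. EPCAM was at 5.25 and 107 CPM in C1-sgKMT2D, and at 6.69 and 147 CPM in C1-sgEED. Of the collagen list, 8 of 12 measured members were higher and 1 lower in C1-sgKMT2D, and 10 of 13 higher and 2 lower in C1-sgEED. Of the adherens junction and desmosome list, 10 of 15 were lower in each line.

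Cytokine and NF-kB genes gave other counts in each line. Of the cytokine list, 10 of 16 measured members were higher and 4 lower in C1-sgKMT2D, and 1 of 14 was higher and 10 lower in C1-sgEED, where 5.51% of 8045 genes were higher and 8.75% lower. Of the NF-kB list, 4 of 15 were higher and 0 lower in C1-sgKMT2D, and 0 of 13 higher and 5 lower in C1-sgEED. CXCL1 was at 406 CPM in the mesenchymal range and 51.3 CPM in the epithelial range of C1-sgKMT2D, and at 21.5 and 23.4 CPM in C1-sgEED. SOD2 was at 1379 and 242 CPM in C1-sgKMT2D, and at 82.7 and 91.6 CPM in C1-sgEED. IL6 was at 36.3 and 5.48 CPM in C1-sgKMT2D, and at 2.23 and 2.42 CPM in C1-sgEED. In C1-sgControl, SOD2 stood at 208 CPM and IL6 at 2.21 CPM. These differences between lines have 1 sample each and were not tested.

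**Figure D5:**
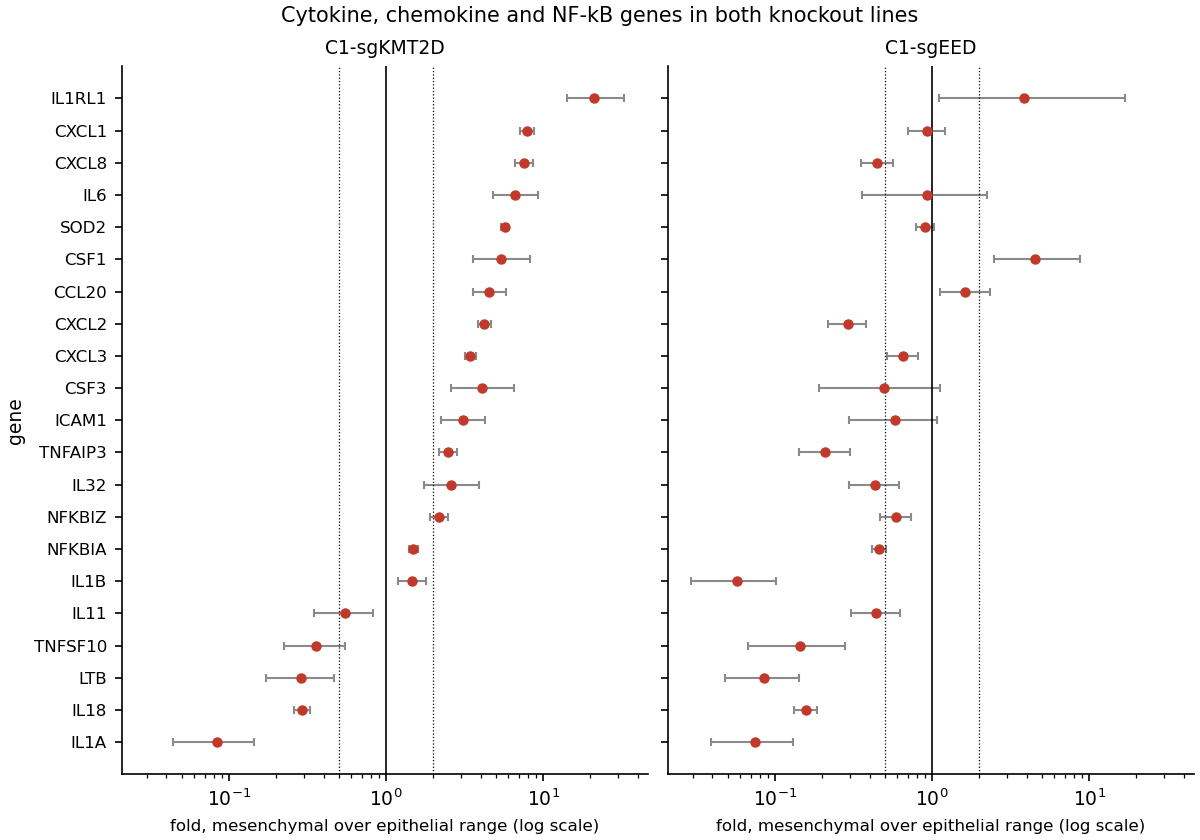
Fold of the mesenchymal over the epithelial range (x axis, log scale, no pseudocount) for 21 cytokine, chemokine and NF-kB genes (y axis) in C1-sgKMT2D (left) and C1-sgEED (right), with 95% intervals for counting error and dotted lines at 2-fold. CXCL8 is 7.55-fold higher in the mesenchymal range of C1-sgKMT2D and stands at 24.8 against 55.2 CPM in C1-sgEED.

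Other genes of the highest 15 also differed in size between the lines. KYNU was at 157 CPM in the mesenchymal range and 9.13 CPM in the epithelial range of C1-sgKMT2D, and at 1.24 and 1.61 CPM in C1-sgEED. TNFAIP6 was at 188 and 11.1 CPM in C1-sgKMT2D, and at 5.70 CPM and 0 UMIs in C1-sgEED. The reverse held for 2 matrix genes. PTX3 was at 110.4 and 5.69 CPM in C1-sgKMT2D, and at 889.6 and 12.6 CPM in C1-sgEED, and MGP was at 37.8 and 2.79 CPM in C1-sgKMT2D, and at 647 and 10.1 CPM in C1-sgEED. Cell cycle lists, within 2-fold throughout in C1-sgKMT2D, differed in C1-sgEED, where 10 of 28 G1/S members and 5 of 35 in G2/M were higher in the mesenchymal range past 2-fold. Contractile genes had 2 of 10 members higher in C1-sgKMT2D and 6 of 12 in C1-sgEED.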

How the data were processed

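Gene expression and hashtag libraries came from pooled cells run on a 10x Genomics 3' kit, as the labels' protocols say. Deposited values are UMI counts per gene or hashtag and barcode, made by the authors with Cell Ranger 3.0.2 on GRCh38, per the submitters' processing notes. Their annotation is not given in these sources. The matrix holds 10336 barcodes, 33694 genes and 4 hashtags.

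Counts were summed per line and range of V and scaled to CPM with Python 3.11.15, numpy 2.4.6, scipy 1.17.1 and pandas 2.3.3. With 1 sample per group, no count model or p-value was used. Log2 ratios and the counts of genes past 2-fold use a pseudocount of 1 CPM, and folds printed with intervals use none. Intervals at 95% are exact (Poisson, Clopper-Pearson or conditional binomial) and cover counting error only. Only the conditional binomial intervals of ratios were tried on simulated data, drawn as Poisson counts. Such counts lack the clustering of UMIs in cells, so the trial does not cover it. Genes at 0 are bounded at 3 counts. Named genes are the 15 highest and 15 lowest at 20 CPM or more without mitochondrial genes and clone names, the 5 markers, EED, KMT2D and members of 39 lists at 10 CPM or more. Genes under 10 CPM were chosen after their values were seen. The cells, lists and markers were chosen with earlier results of these data known. A few genes are not reported here. Of 569 list symbols, KYAT1 was not matched. Positions come from GENCODE 29 and promoters from RefSeq. The 1058 barcodes with no single leading hashtag were left out, and doublets within a hashtag stayed in. Scrublet (scanpy 1.11.5) marked 0 of 9193 barcodes at its own threshold, so the 831 highest scores, as many as carried 2 hashtags, were removed in 1 alternative. Alternatives changed the score, cell filters, depth, scaling, pseudocount, expression floor and fold.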

Additional observations from a re-analysis of the deposited data

Results flagged for a closer look

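For 8 genes the mesenchymal range was at least 2-fold away from the epithelial range in opposite directions in the 2 knockout lines, a difference that was not tested. They are given with the log2 ratio of C1-sgKMT2D minus that of C1-sgEED. The complement gene C3 differed by 4.58, at 25.1 CPM in the mesenchymal range and 9.34 CPM in the epithelial range of C1-sgKMT2D and 1.24 and 20.1 CPM in C1-sgEED. CXCL8 differed by 4.00, the acute-phase gene SAA1 by 3.92, CXCL2 by 3.78 and TNFAIP3 by 3.43. SAA1 stood at 259.7 and 97.5 CPM in C1-sgKMT2D and 22.0 and 130.4 CPM in C1-sgEED. EREG differed by 2.78 and the polyamine enzyme SAT1 by 2.77, with SAT1 at 1085 and 530.3 CPM in C1-sgKMT2D and 178 and 596 CPM in C1-sgEED. TGM2, a transglutaminase, went the other way, with a difference of -2.30, at 17.1 and 43.1 CPM in C1-sgKMT2D and 144 and 70.8 CPM in C1-sgEED.

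Cells with the hashtag that has no line in the labels also held a mesenchymal range, with 47.6% of 1921 cells above 0.5 (45.3 to 49.8). The level in the control was 0 of 1713 C1-sgControl cells.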

How the results depend on the processing

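For 391 named genes in 12 settings, 481 of 4692 log2 ratios moved further than the counting interval of the main ratio reached. These were 162 of 391 for V above 0.8 against V at or below 0.2, 97 after thinning and 79 among cells of 4000 to 8000 UMIs. The thinned setting also scored V anew on the thinned counts, so it changed the cells of each range as well as their depth. Of named genes past 2-fold, 0 changed sign, but a call could be lost. DST went from -1.01 to -0.98 for V above 0.8 against V at or below 0.2. The sign of ratios near 0 could turn. TWIST2, ERBB2, COL1A1 and KMT2D, for example, changed sign when cells with V above 0.8 were set against those at or below 0.2, at log2 ratios of 0.27, -0.51, -0.09 and -0.01. The share of C1-sgKMT2D cells with V above 0.5 was 44.1% with V over VIM, KRT5 and KRT17 only, 39.0% with at least 1000 genes and at most 10% mitochondrial UMIs, 43.5% among cells of 4000 to 8000 UMIs and 39.0% after thinning to 2000 UMIs. The counts of genes at least 2-fold higher and lower, 169 and 228, were 267 and 341 at a floor of 10 CPM, 87 and 112 at 50 CPM, 366 and 466 past 1.5-fold and 78 and 124 past 3-fold. Cells with V above 0.8 against those at or below 0.2 gave 226 and 300, and removing the highest Scrublet scores, an alternative chosen after seeing the data, gave 41.95%, 172 and 243. The 31 genes ranked highest and lowest or used as markers kept their 2-fold call in all 12 gene-level settings. They were picked for large ratios in these same cells, with CXCL8 the closest to 0 at 2.88. Their kept calls are therefore no independent check. No paired analysis was possible because each line is 1 sample and no groups share replicate numbers. Replicates could not be left out for the same reason. Depth limits genes under the floor, such as SNAI1 and CDH2, whose ratios rest on few UMIs.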

Other observations

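Surface markers of mammary cell states and metabolic genes add to the picture in C1-sgKMT2D. MME, which encodes CD10, a marker of myoepithelial and stromal cells, was at 31.9 CPM in the mesenchymal range and 2.36 CPM in the epithelial range, or 13.5-fold higher (8.59 to 22.2). THY1 was 2.72-fold higher. CD24, a marker of epithelial cells, had 7.87 CPM against 66.3 and was 8.42-fold lower (6.01 to 12.1), while CD44 was level. Of 19 hypoxia and glycolysis genes 1 was higher and 2 lower, ADM at 45.2 CPM against 10.3, VEGFA at 13.6 against 28.8 and NDRG1 at 60.1 against 319. The clade B serpins SERPINB4 and SERPINB3, close copies of each other, were at 73.9 CPM against 12.6 and 46.6 against 13.96, and SERPINB5 was at 76.95 against 507.5. In the TGF-beta and BMP list CTGF was 7.89-fold higher and the activin chain gene INHBA 4.88-fold lower.

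By chromosome, the median log2 ratio of genes of at least 20 CPM ran from -0.14 on chromosome 20 (184 genes) to 0.12 for the mitochondrial genes, with -0.14 on chromosome 16 (143 genes), which holds CDH1.

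In the cells of the hashtag with no line in the labels, SOD2 was at 985 CPM in the mesenchymal range and 244 CPM in the epithelial range, CXCL1 at 160.1 and 38.8 CPM and CXCL8 at 123 and 72.7 CPM. TNFAIP3 was at 48.7 and 111 CPM and NFKBIA at 467 and 555 CPM, so these genes did not move in 1 direction there.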
